A study of Rattus norvegicus with 20 samples.

Results

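The cytosolic ribosomal proteins are the proteins that, with ribosomal RNA, build the ribosome of the cytoplasm. Their messenger RNAs were read in rat liver with an Affymetrix array that detects the 3′ end of transcripts. Members were all genes with a symbol of the form Rpl or Rps plus a number, together with Rplp0 and Rpsa, that had a probe set annotated to a single gene. The S6 kinases and symbols of pseudogenes were left out. This gave 47 of the 13468 genes measured: 27 proteins of the large subunit, 13 of the small subunit, the stalk protein Rplp0 and 6 paralogs that are close copies of a canonical protein. Of 77 canonical symbols looked for, 41 were found in this way. The others, among them Rplp1 and Rplp2, were not analysed as single genes. Probe sets that list several symbols including a ribosomal one are only counted further on.

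The animals were male Sprague-Dawley rats, 4 weeks old on arrival, given a commercial diet for 5 days and then 1 of 4 experimental diets for 21 days. In the high-isoflavone 1:1 diet equal parts of the protein came from casein and from soybean of the cultivar Yukipirika, which is rich in isoflavones, plant compounds that bind estrogen receptors. In the high-isoflavone 3:1 diet 3 parts of the protein came from casein and 1 part from Yukipirika. In the conventional soybean diet equal parts came from casein and the cultivar Fukuyutaka, and the control diet held casein at 200 g per kg. From the 8 rats of the high-isoflavone 1:1 diet and the 7 rats of each other diet, 5 each with an average food intake were put on arrays, 1 array per rat. The diets therefore differ in soybean as well as in isoflavones, and whole soybean brings other components with it. The question stated by the series is how soybeans and their isoflavone content affect liver messenger RNAs. All values are log2 signals, so a difference of 1 is a 2-fold difference.

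A ribosome holds each core protein once, and cells keep the production of these proteins in balance. Many messenger RNAs of ribosomal proteins start with a tract of pyrimidines (C and T), the 5′ terminal oligopyrimidine or TOP motif, through which the kinase mTOR adjusts their translation to amino acids and insulin. In liver, ribosome number is known to follow protein supply, and ribosomal protein messages are among the most abundant of the tissue.

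The pyrimidine tract is shown here for 6 members, to set the tract beside the array values given further on. Rpl26, Rps24, Rpl35a and Rpl39 had small unadjusted p-values on the high-isoflavone 1:1 diet, and Rps6 and Rplp0 did not. Only Rpl26 and Rps24 passed after adjustment in the main fit. Each line holds 20 bases before and 20 bases from the annotated start of the gene, 5′ to 3′ on the gene's strand, from RefSeq on GRCr8, and capitals mark the longest unbroken run of C and T where it has at least 7 letters.
Rpl26: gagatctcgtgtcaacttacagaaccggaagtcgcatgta
Rps24: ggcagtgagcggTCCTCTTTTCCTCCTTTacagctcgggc
Rpl35a: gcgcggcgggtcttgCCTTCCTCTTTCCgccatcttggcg
Rpl39: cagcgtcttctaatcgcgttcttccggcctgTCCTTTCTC
Rps6: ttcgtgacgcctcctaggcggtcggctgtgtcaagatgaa
Rplp0: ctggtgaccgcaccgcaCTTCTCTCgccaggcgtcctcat
They lie at chr10:54109672-54109711 on the plus strand for Rpl26, chr16:96497-96536 on the plus strand for Rps24, chr11:81235002-81235041 on the minus strand for Rpl35a, chrX:121195877-121195916 on the minus strand for Rpl39, chr5:106420521-106420560 on the minus strand for Rps6 and chr12:46718371-46718410 on the minus strand for Rplp0. The longest run had 17 letters in Rps24, 13 in Rpl35a, 9 in Rpl39 and 8 in Rplp0, against 6 in Rps6 and 4 in Rpl26. Of the 42 members with a RefSeq window 30 held a run of at least 7 letters (71.4%), against 6500 of 27457 genes (23.7%). On the other strand, where such a run reads as purines, 25.5% of genes and 5 of the 42 members held one. A window without a run says only that these letters are not at the annotated start.

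On these arrays 39 of the 47 members had a mean signal of 5 or more, which put them between the 96.9th and the 99.7th percentile of all probe sets. The highest means over the 20 arrays were 8.57 for Rps29, a zinc-binding protein of the small subunit, 8.44 for Rpl41, a very short peptide, and 8.38 for Rpl7a. Signal depends on the probes, so these levels do not order the genes by abundance. The remaining 8 had a mean below 5 and are called dim here, although they ranged from percentile 0.971 for Rpl26l1 to percentile 89 for Rps27l. They were the 6 paralogs and the probe sets of Rpl30 (2.28) and Rps13 (1.08), and the lowest means were 0.64 for Rpl26l1, 1.08 for Rps13 and 2.0 for Rpl39l1. The median SD between rats of a diet was 0.132 for the 39 bright members, against 0.163 for all 1818 probe sets with a mean of 5 or more. The 2 sets were not matched in brightness, as the bright members had means of 6.09 to 8.57.

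The lowest ribosomal protein signals were on 2 arrays. The median over the 47 members was 6.84 in replicate 2 of the high-isoflavone 1:1 diet, where the other 4 rats had 7.07 to 7.20, and 7.00 in replicate 5 of the high-isoflavone 3:1 diet, where the other 4 had 7.22 to 7.29. Rats on conventional soybean had 7.01 to 7.37 and rats on casein 7.03 to 7.27. The main differences are also given without these arrays below. For beta-actin the 3′ signal exceeded the 5′ signal, a measure of RNA integrity, by 1.07 to 2.10 (log2) on the high-isoflavone 1:1 diet, 1.35 to 2.13 on the high-isoflavone 3:1 diet, 1.32 to 1.83 on conventional soybean and 1.29 to 1.53 on casein. The labelled tissue was checked with 8 hepatocyte markers, all of which lay at percentile 89.2 or above. Of these, Tat, an amino acid-degrading enzyme, fell by 1.25 on the high-isoflavone 1:1 diet against casein (adjusted p = 0.0331) and by 1.20 on conventional soybean (adjusted p = 0.0487). The 8 hepatocyte markers were split, with 4 below and 4 above casein on each of these 2 diets. Epcam, a marker of bile duct cells, fell by 0.95 on the high-isoflavone 1:1 diet (adjusted p = 0.00251) and by 0.71 on conventional soybean (adjusted p = 0.0257). It did not stand for its list. Of 5 bile duct markers, 3 were above casein on the high-isoflavone 1:1 diet (median 0.02, highest 0.88). On conventional soybean 2 were above (median -0.08, highest 1.01). The part of these markers in the ribosomal protein differences was not tested.

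**Figure D1:**
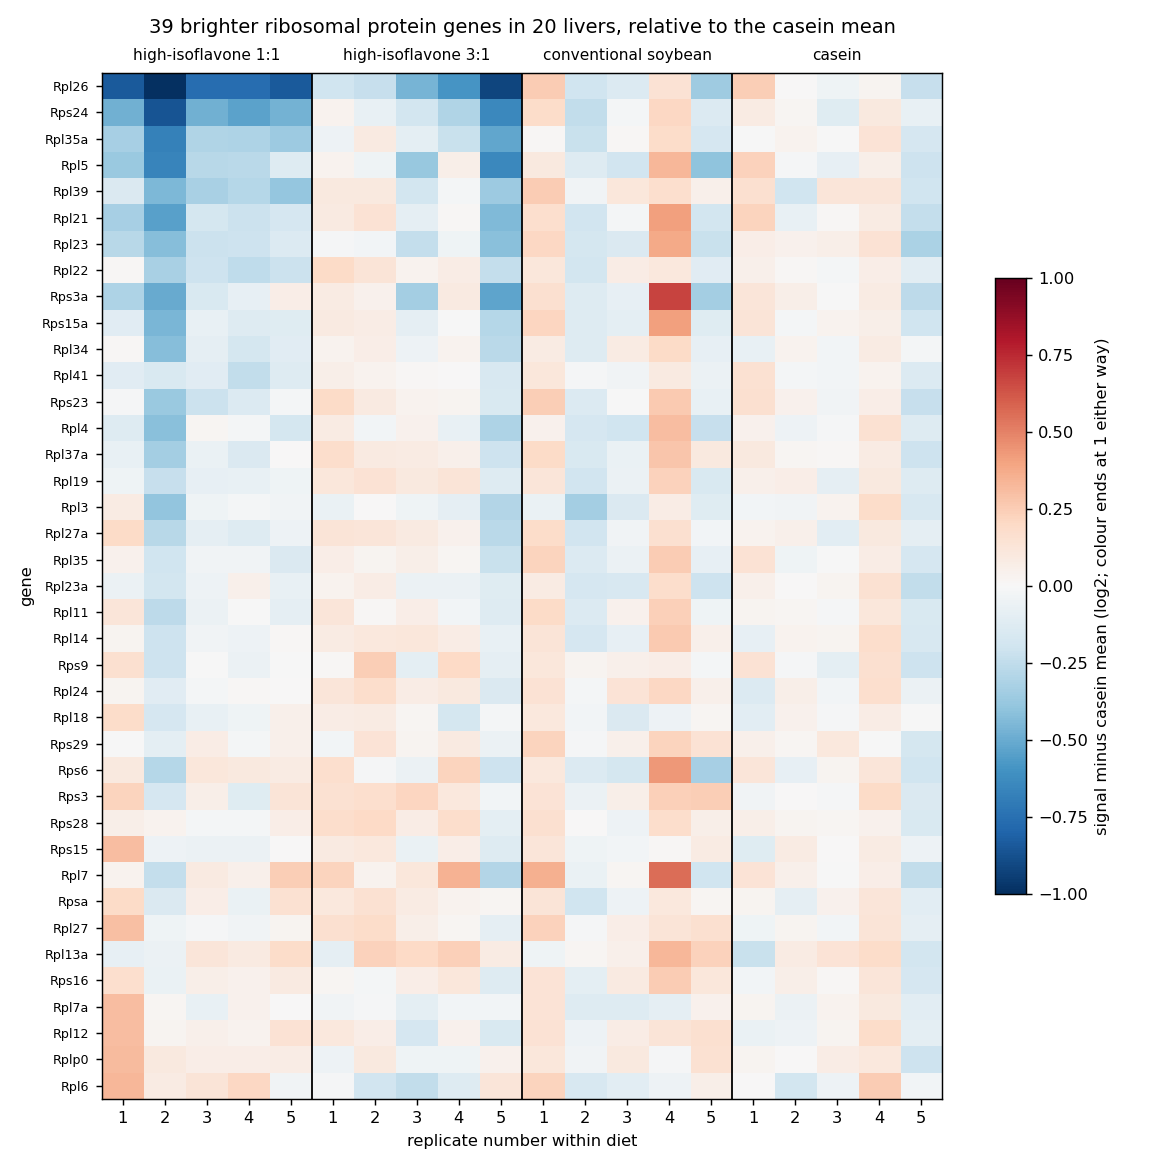
Signal of the 39 bright members in each of the 20 livers, minus the casein mean of the gene (log2, colour ending at 1 either way), with genes ordered by the difference between the high-isoflavone 1:1 diet and casein. Rpl26, Rps24 and Rpl35a are blue in all 5 rats of the high-isoflavone 1:1 diet, whereas replicate 2 of that diet and replicate 5 of the high-isoflavone 3:1 diet are pale to dark blue over most genes.

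On the high-isoflavone 1:1 diet, 2 ribosomal protein messages were lower than on casein and none was higher. Rpl26, a protein of the large subunit beside the exit of the nascent chain, fell to 0.524 of its casein signal, and Rps24, a protein of the small subunit that is mutated in some human families with Diamond-Blackfan anaemia, fell to 0.675 of it. The other 45 members did not pass the test, and most differed little. The 2 called members were 4.26% of the 47. Over all 27702 probe sets 2.21% were called in this comparison and 1.07% were called lower.

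Rpl26 had signals of 7.27, 6.66, 7.35, 7.36 and 7.28 in the 5 rats of the high-isoflavone 1:1 diet, against 8.36, 8.12, 8.07, 8.14 and 7.89 in the 5 rats on casein. Every rat of the high-isoflavone 1:1 diet was below every rat on casein, and replicate 2 was lowest by a wide margin. The means were 7.19 ± 0.295 and 8.12 ± 0.171 (SD, n = 5 each). Rpl26 fell by 0.93 (SE 0.149, 95% interval -1.24 to -0.62, adjusted p = 0.0018). Without replicate 2 of the high-isoflavone 1:1 diet and replicate 5 of the high-isoflavone 3:1 diet, Rpl26 differed by -0.80 (adjusted p = 0.00158), and with the actin ratio as a covariate by -0.93 (adjusted p = 0.00212). In whole liver, fewer cells of a type and less RNA per cell cannot be told apart.

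Rps24 had signals of 7.03, 6.65, 7.04, 6.98 and 7.04 on the high-isoflavone 1:1 diet, against 7.59, 7.53, 7.39, 7.61 and 7.44 on casein. The rats of the 2 diets did not overlap, and replicate 2 of the high-isoflavone 1:1 diet was again the lowest. The means were 6.95 ± 0.168 and 7.51 ± 0.0965 (SD, n = 5 each), and Rps24 fell by 0.57 (SE 0.115, 95% interval -0.81 to -0.33, adjusted p = 0.0109). Without the 2 arrays of low ribosomal protein signal it differed by -0.49 (adjusted p = 0.0122).

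Rpl35a, a protein of the large subunit that is also mutated in some human cases of Diamond-Blackfan anaemia, came closest of the others. It had 6.57, 6.23, 6.60, 6.60 and 6.54 on the high-isoflavone 1:1 diet, against 6.90, 6.93, 6.90, 7.04 and 6.74 on casein. The rats of the 2 diets did not overlap. The means were 6.51 ± 0.156 and 6.90 ± 0.109, and the difference was -0.40 (SE 0.106, adjusted p = 0.0517), just outside the threshold. It passed under quantile normalization (adjusted p = 0.0362), under centring and scaling (0.031), with a replicate block (0.0419), without the dimmest probe sets (0.0432) and with only the 10 arrays compared (0.0467). It also passed in 3 of the 20 fits that left out 1 array (0.026 to 0.154 over the 20), so its call depends on the setting. Without the 2 arrays of low ribosomal protein signal it differed by -0.33 (adjusted p = 0.0832).

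**Figure D2:**
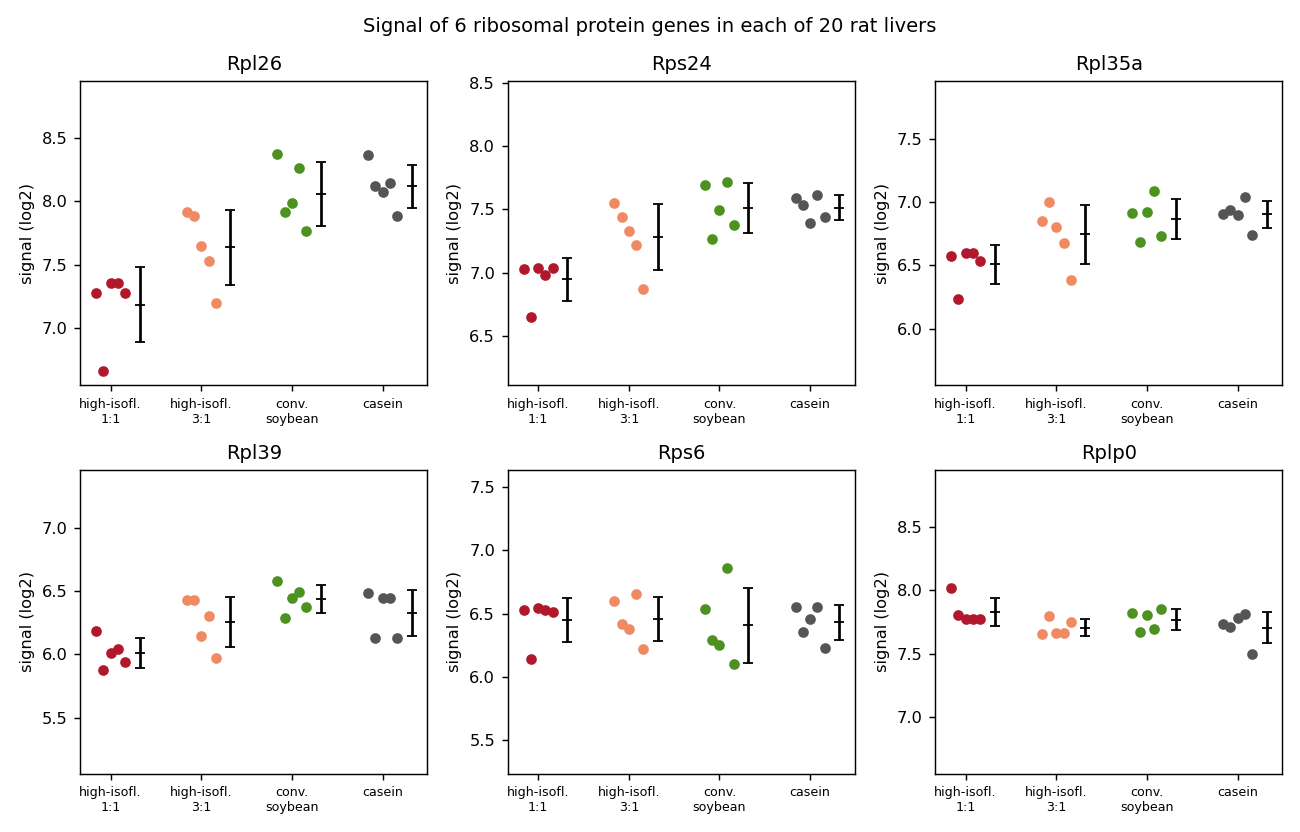
Log2 signal of 6 members in each liver, by diet, with mean and SD as bars (n = 5 rats a diet). Rpl26, Rps24 and Rpl35a are lower in all 5 rats of the high-isoflavone 1:1 diet than in any rat on casein, while Rps6 and Rplp0 overlap between all diets.

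Members of the large subunit and the stalk had a median difference of -0.07 (28 genes, 1 fell), members of the small subunit 0.02 (13 genes, 1 fell) and the paralogs -0.20 (6 genes, none fell). Over all 47 the median was -0.06 with 30 below 0, against 0.03 over all genes. Leaving out 1 array put it between -0.10, without replicate 1 of the high-isoflavone 1:1 diet, and -0.02, without replicate 2 of that diet. Without casein replicate 4 it was -0.03, and without casein replicate 5 it was -0.10. After each array was centred and scaled the member median was -0.22 with 45 below 0, against -0.12 over bright probe sets and -0.03 over all genes. At an unadjusted p under 0.05, 10 members (21.3%) were lower and none higher, against 6.28% of all probe sets lower. They were Rpl5, Rpl21, Rpl22, Rpl23, Rpl26, Rpl35a, Rpl39, Rpl41, Rps24 and the paralog Rpl7l1. Without overlap between the rats of the 2 diets, 3 members were lower (6.38%), against 2.08% of all probe sets. For 32 of the 39 bright members the 95% interval lay within 0.5 of 0, that is within 1.41-fold either way. Of those 10 members 7 held the pyrimidine run, as did 23 of the other 32 with a window. Of 9 macrophage markers listed 7 were measured. All 7 were below casein on the high-isoflavone 1:1 diet (median -0.34), 5 of them at an unadjusted p under 0.05 and none called. Their summed linear signal was 173 to 204 on the high-isoflavone 1:1 diet, against 191 to 297 on casein, and their part in the ribosomal protein differences was not tested.

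Rpl26 and Rps24 were also lower than on casein when set against the other ribosomal proteins of the same array. Set against the mean of the other 38 bright members, Rpl26 stood at -0.33 to 0.19 in the 5 rats on the high-isoflavone 1:1 diet, against 0.79 to 1.08 on casein. Rps24 stood at -0.34 to -0.15, against 0.13 to 0.33. Rpl35a stood at -0.77 to -0.59, against -0.42 to -0.34. On this scale too, none of the 3 overlapped between the 2 diets. The 3 genes were chosen from the same arrays, so this is not a separate test.

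The array also holds 35 probe sets that list several symbols including a ribosomal one, and no gene is named from them. In the high-isoflavone 1:1 diet 7 of them (20%) were called lower than casein, by 0.45 to 0.77, with adjusted p of at most 0.024, against 1.07% of all probe sets called lower. None was called higher. The same 7 probe sets differed by -0.40 to -0.17 on the high-isoflavone 3:1 diet and by -0.12 to 0.14 on conventional soybean, none called. These comparisons share the casein rats.

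Among members with a known role outside the subunit core, Rpl5 and Rpl11, which carry 5S ribosomal RNA and bind the p53 regulator MDM2, did not pass on the high-isoflavone 1:1 diet. Rpl5 was 6.06, 5.78, 6.16, 6.17 and 6.31, against 6.67, 6.43, 6.36, 6.50 and 6.23 on casein (-0.34, SE 0.144, adjusted p = 0.223). Rpl11 differed by -0.06 (adjusted p = 0.787). Rps6, the small-subunit protein phosphorylated by S6 kinase, was 6.53, 6.14, 6.55, 6.53 and 6.51, against 6.55, 6.35, 6.46, 6.55 and 6.23 (difference 0.02, 95% interval -0.24 to 0.28, adjusted p = 0.958). Rplp0, the base of the stalk that recruits elongation factors, was 8.02, 7.81, 7.77, 7.77 and 7.78, against 7.73, 7.71, 7.78, 7.81 and 7.50 (difference 0.12, 95% interval -0.02 to 0.27, adjusted p = 0.408). Rpsa differed by 0.04 (adjusted p = 0.854). Rack1, a scaffold protein of the small subunit outside the naming rule, had means of 6.92 ± 0.105 and 6.84 ± 0.118 (difference 0.08, adjusted p = 0.742).

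The paralogs and dim members varied in precision, from an SE of 0.0878 for Rpl7l1 to an SE of 0.343 for Rpl26l1. Rpl7l1, known in human cells from ribosome precursors, was 3.53, 3.16, 3.57, 3.39 and 3.30, against 3.70, 3.64, 3.54, 3.78 and 3.69 (-0.28, adjusted p = 0.0984), and a second probe set of it gave -0.18 (adjusted p = 0.411). Rps27l, a target of p53 in human cells, differed by -0.19 (adjusted p = 0.373), and Rpl26l1, the close copy of Rpl26, by -0.38 with a 95% interval of -1.09 to 0.34. Rpl3l, the muscle form of Rpl3, differed by -0.21 (adjusted p = 0.577) and Rpl39l1 by 0.10 (adjusted p = 0.817). At the upper end Rpl6 differed by 0.14 (adjusted p = 0.486).

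**Figure D3:**
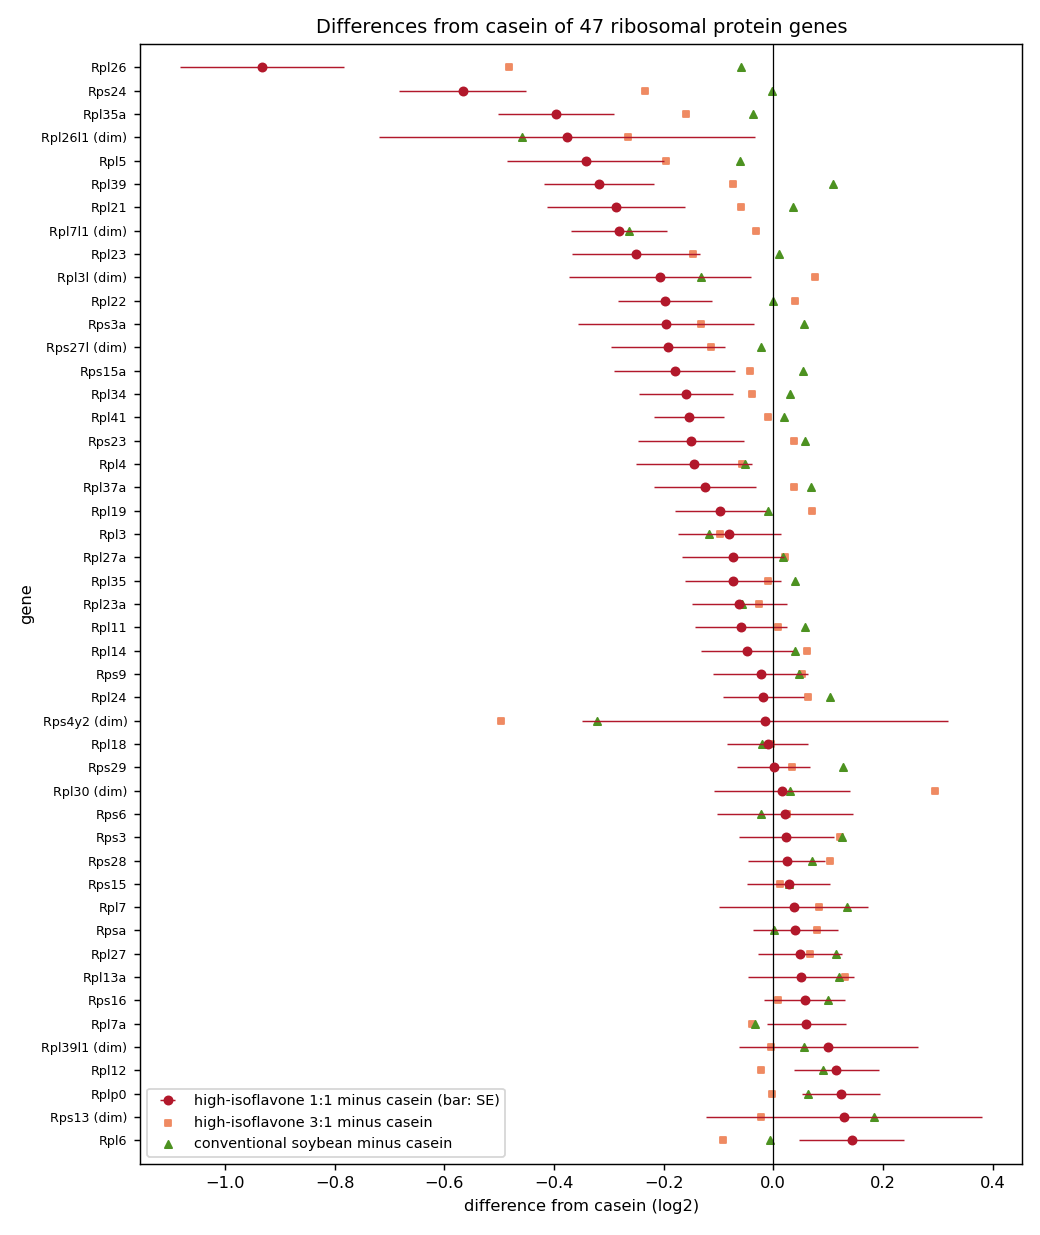
Difference from casein (log2) of all 47 members on the high-isoflavone 1:1 diet (circles, with SE bars), the high-isoflavone 3:1 diet (squares) and the conventional soybean diet (triangles), which share the casein rats. The 3 lowest circles are Rpl26, Rps24 and Rpl35a, and the 3 diets run in the order -0.93, -0.48 and -0.06 for Rpl26.

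On the high-isoflavone 3:1 diet no member passed against casein with limma, where 0.0397% of all probe sets did. At an unadjusted p under 0.05 there were 2 of 47, Rpl26 lower and Rpl30 higher, against 8.12% of all probe sets. Rpl26 was 7.92, 7.89, 7.65, 7.53 and 7.20, against 8.36, 8.12, 8.07, 8.14 and 7.89 on casein, so 3 of the 5 rats lay below every casein rat. The difference was -0.48 (adjusted p = 0.31), and without the 2 arrays of low ribosomal protein signal it was -0.37 (adjusted p = 0.396). Rps24 was 7.55, 7.44, 7.33, 7.22 and 6.87, against 7.59, 7.53, 7.39, 7.61 and 7.44 (-0.23, adjusted p = 0.628). Rpl30, a dim probe set, had means of 2.49 ± 0.127 and 2.19 ± 0.161 (0.30, adjusted p = 0.552). The median over the members was -0.01, and leaving out 1 array put it between -0.03 (without casein replicate 5) and 0.04 (without replicate 5 of the high-isoflavone 3:1 diet). For 38 of the 39 bright members the 95% interval lay within 0.5 of 0.

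On the conventional soybean diet no member passed against casein with limma, where 1.64% of all probe sets did. At an unadjusted p under 0.05 there was 1 of 47 (2.13%), against 16.8% of all probe sets. That member was Rpl7l1, at 3.42, 3.42, 3.51, 3.32 and 3.37, against 3.70, 3.64, 3.54, 3.78 and 3.69 on casein. All 5 rats lay below the 5 casein rats (-0.26, SE 0.0878, adjusted p = 0.127), and the second probe set gave -0.24 (adjusted p = 0.231). It was the only member without overlap in this comparison, against 1.64% of all probe sets lower without overlap.

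The members called on the high-isoflavone 1:1 diet overlapped between conventional soybean and casein. Rpl26 was 8.37, 7.92, 7.98, 8.26 and 7.77, against 8.36, 8.12, 8.07, 8.14 and 7.89 on casein (-0.06, adjusted p = 0.873). Rps24 was 7.70, 7.27, 7.49, 7.72 and 7.38, against 7.59, 7.53, 7.39, 7.61 and 7.44, with a difference of 0.00 after rounding (adjusted p = 0.994). Rps29 differed by 0.13 (adjusted p = 0.344) and Rpl27, a protein of the large subunit, by 0.11 (adjusted p = 0.46), and centring and scaling turned both below 0. All 39 bright members had a 95% interval within 0.5 of 0. The member median was 0.03, against 0.04 over all genes, and -0.12 after centring and scaling, which put bright probe sets as a whole at -0.12 too. Leaving out 1 array moved it between -0.02 and 0.06, below 0 without casein replicate 5 or without replicate 1 or 4 of conventional soybean.

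The high-isoflavone 1:1 and conventional soybean diets hold the same share of soybean protein from different cultivars. Here 1 member was called, Rpl26, which was lower on the high-isoflavone 1:1 diet, at 2.13% of the 47 against 0.0758% of all probe sets, all of them lower. Rpl26 was 7.27, 6.66, 7.35, 7.36 and 7.28 on the high-isoflavone 1:1 diet, against 8.37, 7.92, 7.98, 8.26 and 7.77 on conventional soybean, and the rats did not overlap. It fell to 0.545 of the conventional soybean signal, a fall by 0.87 (SE 0.149, 95% interval -1.18 to -0.57, adjusted p = 0.0161). The call was lost without replicate 4 of conventional soybean (adjusted p = 0.069), without replicate 2 of the high-isoflavone 1:1 diet (0.0556), with only the 10 arrays compared (0.0785), without the arrays numbered 1 (0.0868) and after centring and scaling (0.169), with the difference at -0.74 or lower in each. Over all alternatives its adjusted p ran over 0.00504 to 0.169.

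Rps24 and Rpl39 were the next members in this comparison. Rps24 was 7.03, 6.65, 7.04, 6.98 and 7.04, against 7.70, 7.27, 7.49, 7.72 and 7.38 (-0.56, adjusted p = 0.0651). Rpl39, a small protein lining the exit tunnel, was 6.18, 5.88, 6.01, 6.04 and 5.94, against 6.58, 6.29, 6.44, 6.50 and 6.38 (-0.43, SE 0.1, adjusted p = 0.15). Both genes were without overlap. Without the 2 arrays of low ribosomal protein signal Rps24 differed by -0.49 (adjusted p = 0.0577) and Rpl39 by -0.39 (adjusted p = 0.228). Without overlap there were 5 members lower, namely Rpl26, Rps24, Rpl35a, Rpl39 and Rpl41 (10.6%, against 0.83% of all probe sets). At an unadjusted p under 0.05, 11 members were lower and none higher (23.4%, against 4.09% of all probe sets lower). Over all members the median was -0.09 with 35 below 0, against -0.01 over all genes, and -0.05 without replicate 2 of the high-isoflavone 1:1 diet or without replicate 1 of conventional soybean, and -0.13 without replicate 2 of conventional soybean. In the same comparison all 7 macrophage markers were below 0 (median -0.14), with summed linear signals of 173 to 204 on the high-isoflavone 1:1 diet against 184 to 301 on conventional soybean. All 5 pancreas markers were below 0 too (median -0.27), with sums of 41.7 to 62.9 against 57.9 to 65.7. On casein their sums were 45.7 to 58.3. Against casein their median was 0.03 on the high-isoflavone 1:1 diet, and 0.24 with all 5 above 0 on conventional soybean. None of these markers was called, and their part in the ribosomal protein differences was not tested. Rpl41 was 8.36, 8.32, 8.36, 8.23 and 8.35, against 8.59, 8.47, 8.45, 8.56 and 8.42 (-0.17, adjusted p = 0.565). Of the 35 probe sets with several symbols, 2 were called lower, against 0.0758% of all probe sets. At an unadjusted p under 0.05, 12 of the 35 were lower, and 8 were lower without overlap.

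Between the high-isoflavone 1:1 and 3:1 diets no member passed with limma, and 0% of all probe sets did. At an unadjusted p under 0.05 there were 9 members, 8 of them lower on the 1:1 diet, against 7.22% of all probe sets in either direction. Rpl26 differed by -0.45 (adjusted p = 0.566) and Rps24 by -0.33 (adjusted p = 0.593), and neither gene was without overlap. Rpl7l1 differed by -0.25 (adjusted p = 0.6). Over the members 37 of 47 lay below 0, with a median of -0.08 against 0.02 over all genes. The median was -0.05 without replicate 2 of the 1:1 diet and -0.13 without replicate 5 of the 3:1 diet. All 7 macrophage markers were lower on the 1:1 diet here too (median -0.23), 2 of them at an unadjusted p under 0.05 and none called. Their part in the ribosomal protein differences was not tested.

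Rpl26 averaged 7.19 ± 0.295 on the high-isoflavone 1:1 diet, 7.64 ± 0.295 on the high-isoflavone 3:1 diet, 8.06 ± 0.251 on conventional soybean and 8.12 ± 0.171 on casein (SD, n = 5 each). Rps24 averaged 6.95 ± 0.168 on the high-isoflavone 1:1 diet, 7.28 ± 0.26 on the high-isoflavone 3:1 diet, 7.51 ± 0.196 on conventional soybean and 7.51 ± 0.0965 on casein. For both genes the high-isoflavone 3:1 diet lay between the high-isoflavone 1:1 diet and casein and passed against neither, and it was not tested against conventional soybean.

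Signals of the members varied together from rat to rat. Within diets, over the 20 arrays, the median correlation was 0.65 over the 741 pairs of bright members and 97.6% of the pairs were above 0. Over all 1081 pairs of members the median was 0.488. All pairs share the same arrays and normalization. Each array is 1 rat, so shared variation of livers and of arrays cannot be told apart, and the cause was not tested.

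Lists from the same pathway, compiled with earlier results of these data known, were counted beside the members. Of 68 genes of ribosomal RNA synthesis and ribosome assembly, 1 rose on the high-isoflavone 1:1 diet against casein and none fell, with a median of -0.06. That is 1.47% of the list, against 2.21% of all probe sets called. It was Emg1, a methyltransferase of 18S ribosomal RNA, with means of 2.36 ± 0.106 and 1.91 ± 0.189, a rise of 1.37-fold (SE 0.106 log2, adjusted p = 0.0253). None of the 68 passed in the other 4 comparisons, with medians of -0.07 on conventional soybean and -0.01 on the 3:1 diet. Of 19 elongation factors and other TOP messages, none passed in any comparison, with medians of -0.02 to 0.03. Eef1a1, the elongation factor that brings aminoacyl-tRNA, differed by 0.07 on the high-isoflavone 1:1 diet against casein (adjusted p = 0.66) and Eef2, the translocase, by -0.11 (adjusted p = 0.548). Of 26 genes of mTOR and MYC control, none passed, with a median of -0.06 on the high-isoflavone 1:1 diet and -0.11 on conventional soybean. Mtor itself differed from casein by -0.17 on the high-isoflavone 1:1 diet (adjusted p = 0.473) and by -0.32 on conventional soybean (adjusted p = 0.134). Counts at an unadjusted p under 0.05 were also taken for the high-isoflavone 1:1 diet against casein. Lower were 9 of the 68 assembly genes, 3 of the 19 TOP messages and 1 of the 26 control genes. Over all probe sets 6.28% were lower. On conventional soybean against casein 7 of the 26 control genes were lower at that level, with 2 of the 68 assembly genes and 1 of the 19 TOP messages. Of all 27702 probe sets 1523 were lower there. The cause was not tested.

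**Figure D4:**
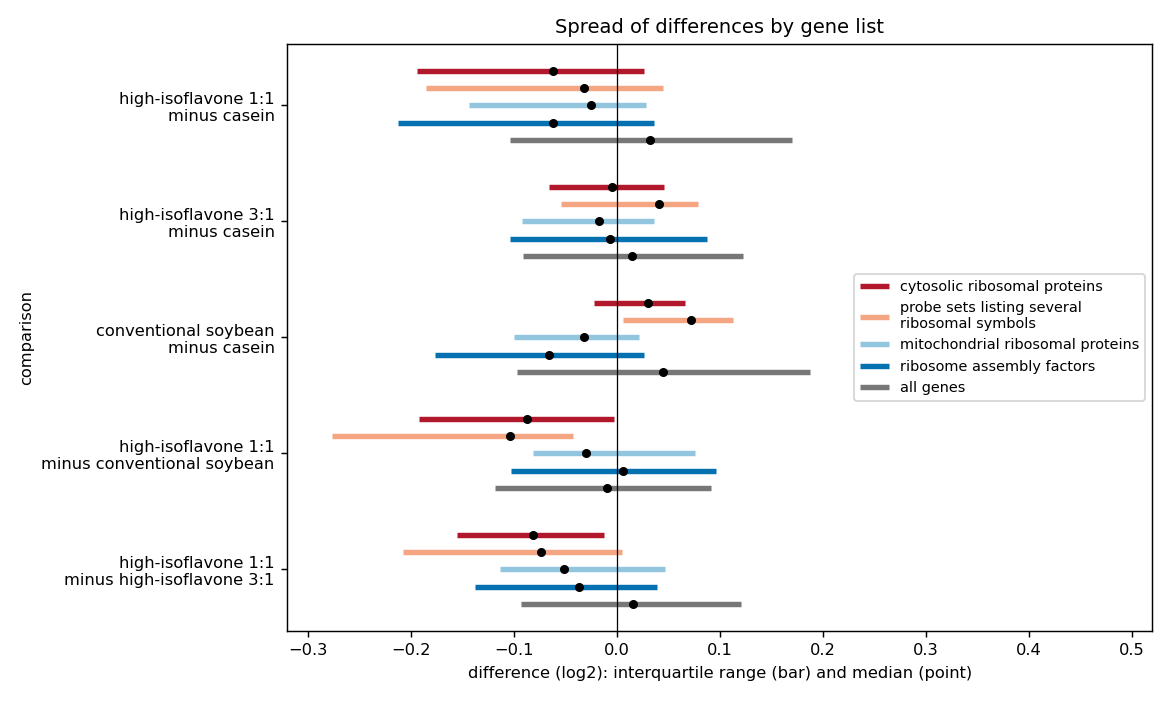
Median difference (point) and interquartile range over genes (bar) in log2 for the ribosomal proteins, probe sets listing several ribosomal symbols, mitochondrial ribosomal proteins, assembly factors and all genes, in 5 comparisons. The ribosomal protein medians are -0.06 and -0.09 in the high-isoflavone 1:1 comparisons with casein and conventional soybean, against 0.03 and -0.01 over all genes.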

How the data were processed

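The authors deposited 1 table of normalized values for 20 arrays, 1 per rat, normalized with the SuperNORM data service per the labels. No label states their scale; the deposited numbers were read as log10 signals because the spike-in controls gave a slope of 1.01 on that scale (SD 0.0243, 20 arrays). They were multiplied by 3.3219 to log2. RNA was labelled by a 3′ kit, per the labels. Titles were matched to diets by wording.

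After 57 control probe sets and 3342 without values (2 in both) were removed, 27702 of 31099 remained, and 47 member genes had 53 of them, 1 per gene being kept by highest mean over 20 arrays. Diets were compared with limma 3.58.1 in R 4.3.3 (all 20 arrays in a single fit, eBayes with trend, two-sided), with Benjamini-Hochberg adjustment over all 27702 and calls at an adjusted p under 0.05. The script was tested on simulated data. Members, lists and the start-site run length were chosen with earlier results of these data known. Named members were those called or, where fewer than 3 were, the 3 of smallest p in each comparison, those of highest and lowest mean, and fixed genes (Rplp0, Rps6, Rpl5, Rpl11, Rpsa, Rack1, paralogs). Others named in the text because of non-overlapping rats or unadjusted p were chosen after their values were seen. The 6 pairs of arrays numbered 1 deviated together (r 0.203 to 0.401), while 6 of the 24 pairs of other numbers exceeded 0.1 (-0.163 to 0.221). No label gives the numbers a meaning and not every pair was over 0.1, so they were not used as a block in the main fit, and fits with the block and without the arrays numbered 1 are alternatives. Alternatives were quantile normalization, centring and scaling, dim probe sets left out, fits of 10 arrays, no trend, the actin ratio as covariate, and single arrays left out. Further ones were the mean of all probe sets of a gene, a fit without the arrays with a higher lowest signal, and canonical proteins only. The last kept the main fit and changed only which members were counted. The fit without 2 arrays of low ribosomal protein signal was added after seeing the data.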

Additional observations from a re-analysis of the deposited data

Results flagged for a closer look

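Single rats stood far from the 4 others of their diet in 7 of 44 group values checked, by Dixon's test at a ratio above 0.71. Chance flags about 1 in 20 independent values. The values checked were not independent, because members varied together and the same rat was flagged in several genes. That rate therefore does not measure an excess here. Replicate 2 of the high-isoflavone 1:1 diet was low in Rpl26 (6.66, the others 7.27 to 7.36), Rps24 (6.65, the others 6.98 to 7.04), Rpl35a (6.23, the others 6.54 to 6.60) and Rps6 (6.14, the others 6.51 to 6.55). Replicate 1 of that diet was high in Rpl27 (8.00, the others 7.66 to 7.73) and Rplp0 (8.02, the others 7.77 to 7.81). The median over the 47 members was low in replicate 5 of the high-isoflavone 3:1 diet (7.00, the others 7.22 to 7.29).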

How the results depend on the processing

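Centring and scaling moved the most values: on conventional soybean against casein the members called became 1 (Rpl7l1) and the median -0.12, with Rps29 at -0.0518 and Rpl27 at -0.0495, on the high-isoflavone 1:1 diet against casein 4 were called (Rpl35a and Rpl7l1 added) and the median was -0.22, and against conventional soybean 0 were called. Over all probe sets, that setting gave 180 higher and 471 lower calls for the high-isoflavone 1:1 diet against casein, where the deposited values gave 317 and 296. With a replicate block 4 members were called for the high-isoflavone 1:1 diet against casein, with Rpl35a and Rpl39 added, and no other count of calls moved. The numbers have no stated meaning, and only the arrays numbered 1 deviated together in all 6 pairs. For the high-isoflavone 1:1 diet against conventional soybean the count, 1 as deposited, was 0 with only the 10 arrays compared and 0 without the arrays numbered 1, and from 0 to 2 with single arrays left out, 2 without replicate 5 of the high-isoflavone 3:1 diet. Calls of Rpl26 and Rps24 against casein held in the 20 fits without a single array and in the 12 other settings run, at an adjusted p of at most 0.0107 and 0.0399. Of the 12, the setting with canonical proteins only kept the main fit and could not change these calls. The causes of these shifts were not tested. Precision is limited by 5 rats a diet, and Rpl26l1, the dimmest member, had the largest SE (0.343).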

Other observations

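Of 73 mitochondrial ribosomal proteins, a set chosen after the data were seen, 2 passed on the high-isoflavone 1:1 diet against casein, which is 2.74% against 2.21% of all probe sets. Mrpl14 rose 1.35-fold, with means of 4.62 ± 0.239 and 4.18 ± 0.106 (adjusted p = 0.0492). Mrps18c fell to 0.636 of casein, with means of 2.66 ± 0.231 and 3.32 ± 0.12 (adjusted p = 0.0111). The list's median was -0.03. At an unadjusted p under 0.05, 14 of the 73 differed, 12 of them lower, against 6.28% of all probe sets lower. Without overlap 4 were lower, against 2.08% of all probe sets. At these measures this list too was lower more often than all probe sets, so that was not limited to the cytosolic ribosomal proteins. All probe sets were not matched to the list in brightness, and the excess was not tested.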
